A study of Homo sapiens with 6 samples.

Results

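The 8 genes described here control the cholesterol content of a cell at the level of transcription, lipoprotein uptake and sterol export. SREBF1 and SREBF2 encode the sterol regulatory element-binding proteins (SREBPs), SCAP encodes their escort protein, INSIG1 and INSIG2 encode the proteins that retain them, MYLIP encodes a ubiquitin ligase for lipoprotein receptors, and ABCA1 and ABCG1 encode sterol exporters. They were chosen by symbol, 8 of the 54259 gene symbols in the deposited count table. RNA-Sequence was performed on MDA-MB-231 cells, a long-established human breast cancer line, with 3 shBry libraries set against 3 shNC libraries. The shBry cells carry a hairpin RNA against the transcription factor brachyury, the shNC cells carry a control hairpin, and nothing in the sources used here says whether either line is a single clone or which hairpin was used. The labels give no other treatment and do not say whether the libraries came from separate cultures, so the p-values measure only the spread between these libraries, which may be technical.

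In sterol-replete cells, SCAP and the SREBP precursors are held in the endoplasmic reticulum by the Insig proteins. When sterols fall, SCAP carries the precursors to the Golgi, where the site-1 and site-2 proteases release the transcription factor. SREBP-2 mainly drives genes of cholesterol synthesis and LDL uptake, and SREBP-1 mainly drives genes of fatty acid synthesis. Excess sterol acts in the other direction through the LXR nuclear receptors, which induce ABCA1, ABCG1, MYLIP and SREBF1. INSIG1 and SREBF2 are themselves known SREBP targets.

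The libraries held between 19319411 and 22985371 counts. Expression is given as CPM, counts relative to the library total, scaled with the TMM method of edgeR, and a count of 0 allows between 0.131 and 0.155 CPM (3 counts of a library's total, counting error only). Differences were tested by quasi-likelihood in edgeR, with p adjusted by the Benjamini-Hochberg method over 15277 tested genes. A call needed both an adjusted p under 0.05 and a change of over 1.5-fold (0.58 on the log2 scale, named the fold limit here), and every change is given for shBry over shNC. Brachyury, listed under its older symbol T, had 0 counts in all 6 libraries, which leaves no check of the labels on the target. Its RNA was thus not detected in the shNC controls either, although the paper describes constitutive overexpression in these cells. Whether the hairpin lowered brachyury cannot be read from these counts. Of 5 genes typical of MDA-MB-231 cells (VIM, CD44, AXL, CAV1 and KRT18), the summed level was between 5850 and 6106 CPM in shNC and between 5260 and 5580 CPM in shBry. Most of that sum was VIM, with means of 3864 CPM in shNC and 3204 CPM in shBry. The genes did not move together: CAV1 was called lower (log2 fold change -1.11). VIM (-0.27) and KRT18 (-0.45) were lower and CD44 (0.34) and AXL (0.33) higher, all short of the fold limit. Of 5 leukocyte markers, PTPRC and TYROBP were at 0, the sum was at least 1.80 CPM in shNC and at most 1.01 CPM in shBry, and CD14 was called lower. In RNA from whole cultures, less RNA per cell cannot be told apart from fewer cells that express a gene.

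Of the 8 genes, SREBF1 and ABCA1 were higher and SREBF2, INSIG1 and INSIG2 were lower in shBry. SCAP and MYLIP did not pass the test, and ABCG1 had too few counts to be tested. Thus 5 of 7 tested genes were called, where 32.4% of all tested genes were called, with 17.1% of all tested genes higher and 15.2% lower. At an adjusted p under 0.05 with no fold limit, 5 of 7 passed, and 53.3% of all tested genes did. In the same 5 genes no library of one group lay within the range of the other, as in 59.5% of all tested genes. The median log2 fold change of the 7 tested genes was -0.01, against 0.03 over all tested genes.

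**Figure D1:**
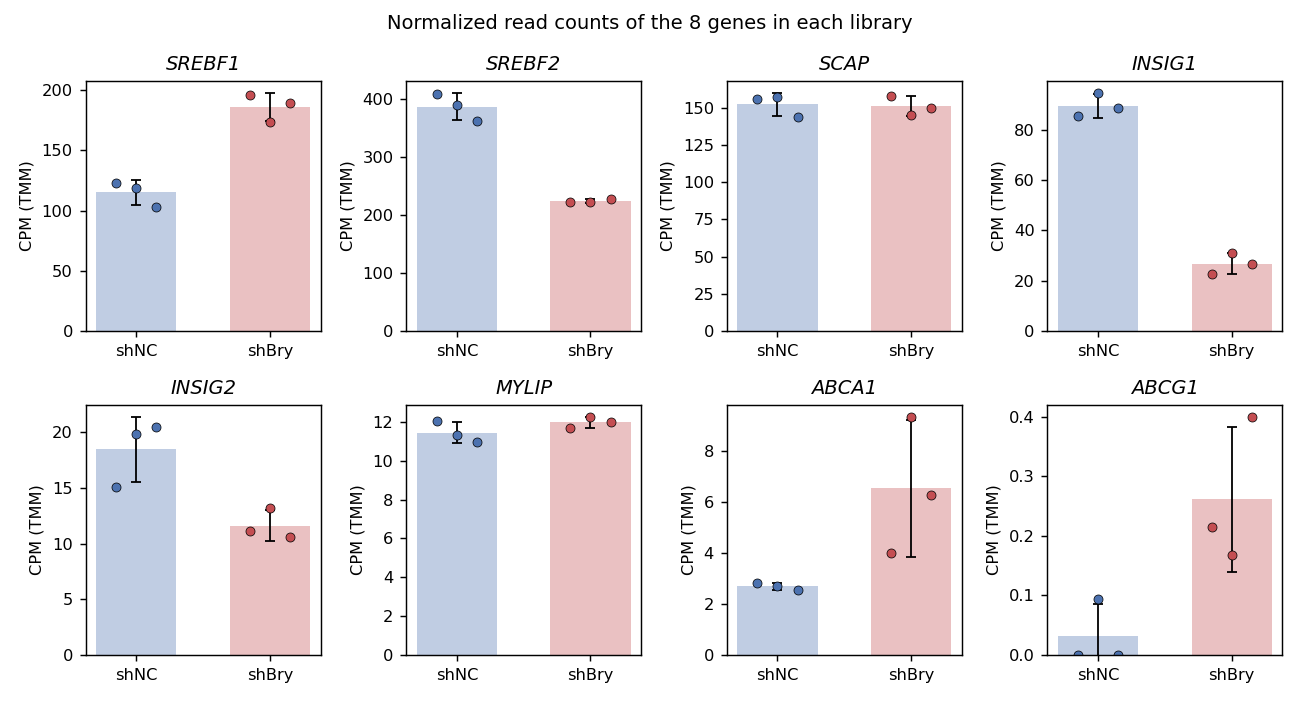
TMM-normalized CPM (linear axis from 0) of the 8 genes in the 3 shNC libraries (blue) and the 3 shBry libraries (red). Points are libraries, bars are means and error bars are SD (n = 3). All INSIG1 values of shBry lie below 31 CPM and all of shNC above 85 CPM, while the values of SCAP and MYLIP overlap.

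SREBF2 and SREBF1, which encode SREBP-2 and SREBP-1, moved in opposite directions. SREBF2 lies on chromosome 22, plus strand, between bases 41833079 and 41907308 (GRCh38, GENCODE 29). It had 409.6, 391 and 362 CPM in shNC replicates 1, 2 and 3 and 223, 223 and 229 CPM in shBry replicates 1, 2 and 3. All shBry values were below all shNC values, and the shBry libraries were close to each other. The mean fell from 388 ± 23.8 to 225 ± 3.54 CPM (SD, n = 3), which is -0.78 ± 0.08 on the log2 scale (standard error; edgeR quasi-likelihood, adjusted p = 1.3e-06).
SREBF1 lies on chromosome 17 from 17810399 to 17837002 on the minus strand. It had 123, 119 and 103 CPM in shNC replicates 1, 2 and 3 and 195, 173 and 189 CPM in shBry replicates 1, 2 and 3. The groups did not overlap, with shBry higher. The mean rose from 115.0 ± 10.4 to 186 ± 11.5 CPM (SD, n = 3), or 0.69 ± 0.09 in log2 units (standard error, edgeR adjusted p = 1.5e-05). The 95% interval of this change, from 0.50 to 0.88, includes the fold limit, and without shNC replicate 3 the log2 fold change was 0.59. SREBF1 makes the SREBP-1a and SREBP-1c transcripts, which counts per gene cannot separate. RAI1 covers 6.92% of the SREBF1 exon bases and the antisense gene SREBF2-AS1 covers 3.71% of the SREBF2 exon bases. No stretch of 50 bases in the transcripts of either gene occurs in transcripts of another gene read in the same direction. That search could not see sequence shared with a gene on the opposite strand, such as SREBF2-AS1.

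Because both genes were counted in the same library, their ratio does not depend on library scaling. The log2 ratio of SREBF1 to SREBF2 counts was -1.73, -1.72 and -1.81 in shNC and -0.19, -0.36 and -0.27 in shBry, a difference of 1.48, or a 2.79-fold higher ratio in shBry. Per base of exon, SREBF1 made up 21.8% ± 0.573 of the SREBF1 and SREBF2 counts in shNC and 43.7% ± 1.44 in shBry (SD, n = 3). Over the 5 pairs of genes compared in this way, the two-sided exact permutation test of 3 against 3 libraries cannot go below p = 0.1, which this pair reached (0.125 after Benjamini-Hochberg adjustment over the 5 pairs).

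The sequence before the SREBF2 start is shown because it holds a match to the sterol regulatory element. The RefSeq promoter table (GRCh38.p14) held entries for 7 of the 8 genes, all but ABCG1, each with 250 bases before and 50 after the start. Both strands were searched for TCACNCCAC (sterol regulatory element), CACGTG (E-box, palindromic), CCAAT (the box of factor NF-Y), GGGCGG (Sp1 box) and the direct repeat known for LXR, copies of AGGTCA set 4 bases apart. No overlap was removed. The 250 bases before each start are printed for SREBF2, which was lower, and SREBF1, which was higher, from 5′ to 3′ on the strand of the gene. Capitals mark matches to the sterol regulatory element, the E-box and the CCAAT box on either strand.
SREBF2, chr22:41832855-41833104, plus strand: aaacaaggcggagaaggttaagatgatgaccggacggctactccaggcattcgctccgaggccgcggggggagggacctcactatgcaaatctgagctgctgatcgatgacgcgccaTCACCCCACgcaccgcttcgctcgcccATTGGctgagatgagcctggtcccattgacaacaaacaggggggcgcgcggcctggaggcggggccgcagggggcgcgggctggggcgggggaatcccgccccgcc
SREBF1, chr17:17836987-17837236, minus strand: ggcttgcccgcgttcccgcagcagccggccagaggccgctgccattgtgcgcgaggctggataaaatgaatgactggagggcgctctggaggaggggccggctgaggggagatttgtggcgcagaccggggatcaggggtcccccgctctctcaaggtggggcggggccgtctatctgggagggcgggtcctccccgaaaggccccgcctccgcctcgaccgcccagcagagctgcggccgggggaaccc
The match in SREBF2, TCACCCCAC, starts 133 bases before the start at chr22:41832972-41832980, followed by a CCAAT box on the opposite strand that starts 106 bases before the start. Of 27305 promoters in the table, 1.15% held TCACNCCAC and 35.7% held CCAAT. The SREBF1 window held neither, nor an E-box, and both windows held 3 Sp1 boxes, while 44.6% of the promoters held at least 1. Only 1 start per gene was searched. For SREBF1 this start lies at the outer 5′ end of the gene, and starts further inside the gene were not covered. Of the 7 members with an entry, only SREBF2 held TCACNCCAC. The same search found 0 matches for HMGCS1 and STARD4, genes of cholesterol synthesis and LDL handling called lower (log2 fold changes -1.88 and -0.74). Sterol regulatory elements with other letters were not searched for, so their absence is not shown for INSIG1 or any other gene. None of the 7 held exact copies of AGGTCA set 4 bases apart in this window, and 0.0183% of the promoters did. LXR elements that differ from these exact letters were not searched for, so their absence is not shown for any member. The ABCA1 window printed further below does hold a near match, tgaccgatagtaacct. On the opposite strand it is such a repeat, set 4 bases apart, with 1 letter changed in each copy. Whether LXR acts through it was not tested. These matches describe the letters only.

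Each SREBF gene carries an intronic microRNA of the miR-33 family, a family known to act on sterol export genes such as ABCA1. The mature sequences from RefSeq are shown because the host genes moved in opposite directions and the microRNAs share a seed, bases 2 to 8, which is in capitals.
hsa-miR-33a-5p, in SREBF2, chr22:41900949-41900969: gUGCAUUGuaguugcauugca
hsa-miR-33b-5p, in SREBF1, chr17:17813897-17813916: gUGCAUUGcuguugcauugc
These libraries do not measure mature microRNAs. The row MIR33A had 0 counts in all libraries and the row MIR33B had at most 2 counts in any library.

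INSIG1 had the largest fall among the 7 tested members. It encodes the Insig protein whose gene is a direct SREBP target, and it lies on chromosome 7 from 155297776 to 155310235 on the plus strand. It had 85.3, 94.6 and 88.7 CPM in shNC replicates 1, 2 and 3 and 22.6, 30.9 and 26.8 CPM in shBry replicates 1, 2 and 3. The lowest shNC value was far above the highest shBry value. The mean fell from 89.5 ± 4.71 to 26.8 ± 4.16 CPM (SD, n = 3), so that shBry held 0.300 times the shNC level, or -1.74 ± 0.11 in log2 units (standard error, edgeR adjusted p = 1.7e-08).
INSIG2, whose liver-type transcript is known for its response to insulin, lies on chromosome 2 from 118088452 to 118110997 on the plus strand. It had 15.1, 19.9 and 20.4 CPM in shNC and 11.1, 13.2 and 10.6 CPM in shBry. The groups did not overlap, and shNC replicate 1 was the nearest to shBry. The mean fell from 18.5 ± 2.94 to 11.6 ± 1.40 CPM (SD, n = 3), or -0.67 ± 0.15 in log2 units (standard error, edgeR adjusted p = 0.0018), with a 95% interval from -0.99 to -0.35 that includes the fold limit.
The log2 ratio of INSIG1 to INSIG2 counts was 2.50, 2.25 and 2.12 in shNC and 1.03, 1.23 and 1.34 in shBry, a difference of -1.09 (two-sided exact permutation test, p = 0.1, the smallest possible). All 3 shBry ratios lay below all 3 shNC ratios. Per base of exon, INSIG1 made up 84.1% ± 1.77 of the counts of the pair in shNC and 71.3% ± 2.30 in shBry (SD, n = 3).

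**Figure D2:**
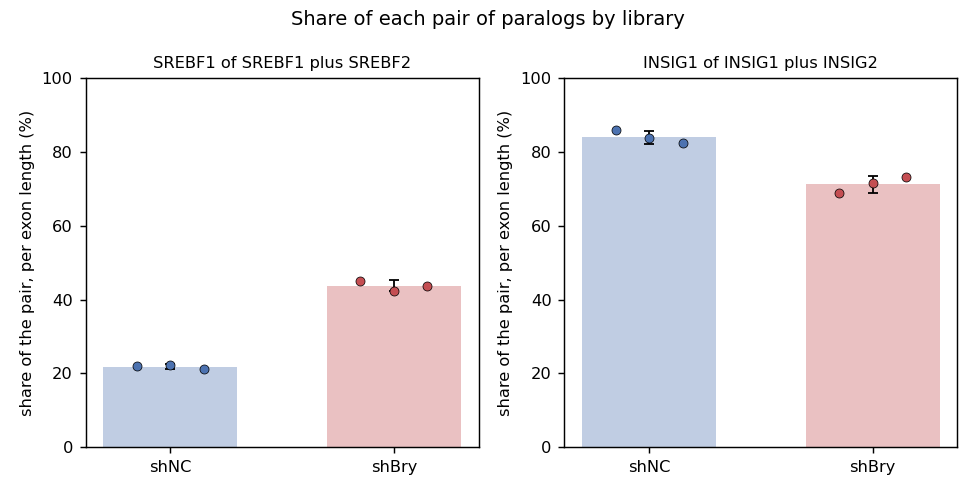
Share of SREBF1 in the SREBF1 and SREBF2 counts (left) and of INSIG1 in the INSIG1 and INSIG2 counts (right), in percent, with counts divided by exon length. Points are libraries, bars are means and error bars are SD (n = 3). The SREBF1 share is 43.7% in shBry against 21.8% in shNC, and the INSIG1 share is 71.3% against 84.1%.

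The sequence before the INSIG1 start is shown for the tested member with the largest change, with capitals as above.
INSIG1, chr7:155297628-155297877, plus strand: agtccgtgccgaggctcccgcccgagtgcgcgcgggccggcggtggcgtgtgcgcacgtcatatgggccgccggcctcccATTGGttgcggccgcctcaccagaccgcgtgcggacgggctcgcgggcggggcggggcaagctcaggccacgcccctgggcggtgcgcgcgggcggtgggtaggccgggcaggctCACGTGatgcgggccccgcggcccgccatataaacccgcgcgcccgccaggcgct
It held an E-box that starts 55 bases before the start and a CCAAT box on the opposite strand that starts 170 bases before it. E-boxes were found in 7.43% of all promoters and in those of 3 members, INSIG1, SCAP and ABCA1, of which 1 fell, 1 did not pass the test and 1 rose. The INSIG1 window, GC-rich at 78.4%, held 6 Sp1 boxes when the 50 bases after the start were included. INSIG2 held a single Sp1 box and none of the other 4 motifs.

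SCAP, which carries SREBP precursors to the Golgi, lies on chromosome 3 from 47413694 to 47477126 on the minus strand. It had 156, 157 and 143 CPM in shNC and 158, 145 and 150.0 CPM in shBry. The groups overlapped throughout. The log2 change was -0.01 ± 0.08 (standard error, edgeR adjusted p = 0.91), and its 95% interval from -0.18 to 0.16 lies inside the fold limit on both sides. The log2 ratio of SCAP to INSIG1 counts was 0.87, 0.73 and 0.69 in shNC and 2.80, 2.23 and 2.48 in shBry. Its difference of 1.74, or a 3.34-fold higher ratio in shBry, came with p = 0.1 in the exact permutation test, the smallest possible.

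Per length of exon, the order of the genes differed between the groups. That length joined the annotated exons of all transcripts of a gene, which can exceed the expressed length. Ranks between genes, and the shares per base of exon above, therefore depend on the annotation. In shNC the order of the levels was SREBF2 (51.3 ± 3.14 CPM per kb of exon), INSIG1 (24.5 ± 1.29), SCAP (23.7 ± 1.19), SREBF1 (14.3 ± 1.29), INSIG2 (4.67 ± 0.745), MYLIP (3.78 ± 0.181), ABCA1 (0.238 ± 0.0126) and ABCG1 (SD, n = 3). The neighbours INSIG1 and SCAP, and INSIG2 and MYLIP, overlapped between libraries. In shBry the order was SREBF2 (29.8 ± 0.469 CPM per kb), SCAP (23.5 ± 1.04), SREBF1 (23.2 ± 1.43), INSIG1 (7.34 ± 1.14), MYLIP (3.95 ± 0.0964), INSIG2 (2.94 ± 0.353), ABCA1 (0.577 ± 0.237) and ABCG1, where only SCAP and SREBF1 overlapped. INSIG1 thus went from the second to the fourth place.

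MYLIP encodes IDOL, an LXR-induced ubiquitin ligase that marks lipoprotein receptors for degradation. It lies on chromosome 6 from 16129125 to 16148248 on the plus strand. It had 12.05, 11.3 and 11.0 CPM in shNC and 11.7, 12.3 and 12.0 CPM in shBry, and the groups overlapped. The log2 change was 0.07 ± 0.13 (standard error, edgeR adjusted p = 0.69), with a 95% interval from -0.21 to 0.34.

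ABCA1 encodes the exporter that loads cholesterol onto apolipoprotein A-I, and it lies on chromosome 9 from 104781002 to 104928237 on the minus strand. It was among the low genes, with 2.84, 2.69 and 2.55 CPM in shNC (62, 57 and 51 counts) and 3.98, 9.36 and 6.30 CPM in shBry (74, 222 and 142 counts). The groups did not overlap, but the shBry libraries differed widely, with replicate 1 near shNC. The mean rose from 2.70 ± 0.143 to 6.55 ± 2.70 CPM (SD, n = 3), a 2.44-fold rise or 1.29 ± 0.26 in log2 units (standard error, edgeR adjusted p = 0.00094). The log2 fold change was 1.53 without shBry replicate 1 and 0.92 without shBry replicate 2.
ABCA1 is also the member whose 3′ end carries the most matches to the miR-33 seed. The letters CAATGCA, complementary to the seed, occur 3 times in the 3′ untranslated region of its longest coding transcript in GENCODE 29 (chromosome 9, minus strand), and 0.167% of 19133 genes held 3 or more while 8.31% held any. The matches are printed with the seed complement in capitals.
ABCA1, first match, bases 135 to 141 of that region: gatactattCAATGCAatgca
ABCA1, second match, bases 150 to 156: aatgcaattCAATGCAatgaa
ABCA1, the third match, bases 1475 to 1481: taattgcaaCAATGCAaaagc
SCAP held 1 match in a region of 141 bases and the other 6 members none, among them SREBF2 with 3118 bases. The ABCA1 region, at 3313 bases, was the longest among the members. The shares over all genes were not adjusted for the length of the region. The sequence before the ABCA1 start is printed for the tested member that rose most, with capitals as above.
ABCA1, chr9:104928156-104928405, minus strand: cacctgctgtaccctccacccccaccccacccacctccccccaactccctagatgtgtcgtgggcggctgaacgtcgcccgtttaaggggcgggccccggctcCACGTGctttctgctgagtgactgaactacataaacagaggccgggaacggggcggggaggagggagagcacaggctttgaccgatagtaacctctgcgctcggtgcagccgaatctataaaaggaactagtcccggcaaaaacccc
Its E-box starts 147 bases before the start.

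ABCG1, which exports cholesterol to HDL particles, lies on chromosome 21 from 42199689 to 42297244 on the plus strand. It had 0, 2 and 0 counts in shNC replicates 1, 2 and 3 and 4, 4 and 9 counts in shBry replicates 1, 2 and 3. The expression filter removed it before the test. Summed over the libraries of each group and divided by their totals, shBry held 8.16 times the shNC level, with an exact 95% interval from 1.94 to 72.9 that covers counting error only. Without the filter, edgeR gave an adjusted p of 0.055 and no call. A ratio of ABCA1 to ABCG1 could not be read at such counts, since its log2 difference of -1.53 (exact permutation p = 0.2) changed sign with the pseudocount.

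**Figure D3:**
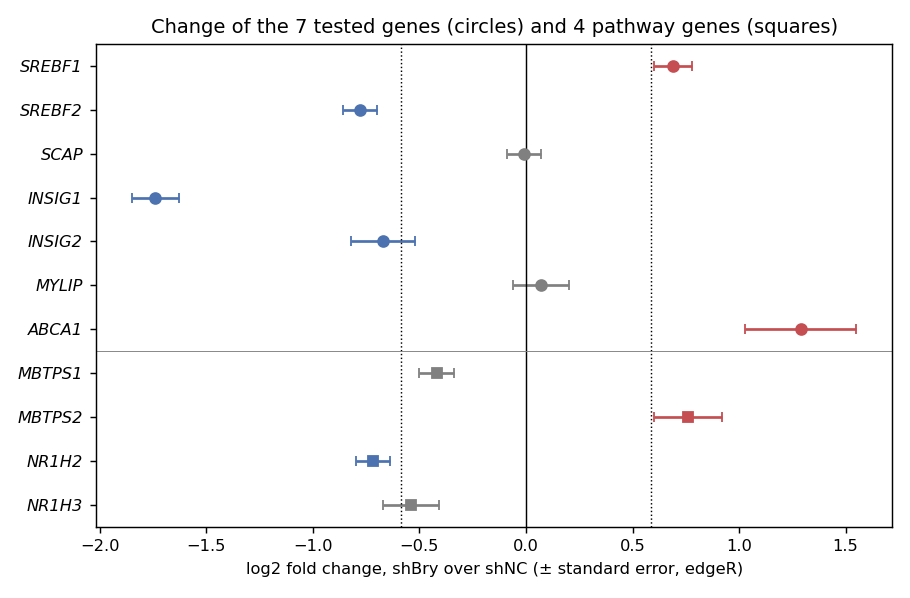
Log2 fold change of shBry over shNC with its standard error (edgeR) for the 7 tested members (circles) and 4 pathway genes (squares). Red marks genes called higher, blue genes called lower and grey genes not called, and dotted lines mark the fold limit of 1.5. INSIG1 lies farthest to the left at -1.74 and ABCA1 farthest to the right at 1.29.

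The protein partners of the SREBP system were examined next. Of 22 genes of SREBP processing and Insig partners, all were tested, 4 were called higher and 1 lower, with a median log2 fold change of 0.18. The share called, 22.7%, was below the 32.4% called among all tested genes, so the genes named next do not set this list apart. MBTPS1, the site-1 protease gene, had 236 ± 10.4 CPM in shNC and 177 ± 8.40 in shBry (SD, n = 3), or -0.42 in log2 units (edgeR adjusted p = 0.00045) and so short of the fold limit. MBTPS2, the site-2 protease gene, rose from 12.8 ± 2.55 to 21.7 ± 3.15 CPM, or 0.76 in log2 units (edgeR adjusted p = 0.00096), and 13.4% of its exon bases lie under other genes. SEC24D, a gene of the COPII coat that carries cargo out of the endoplasmic reticulum, rose from 29.2 ± 3.30 to 76.1 ± 0.196 CPM, or 1.38 in log2 units. VCP, the ATPase that extracts ubiquitylated proteins from that membrane, fell from 758 ± 29.5 to 486 ± 30.8 CPM, or -0.64 in log2 units.

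Of 16 genes of lipoprotein receptors and LDL handling, 4 were called higher and 6 lower, with a median log2 fold change of -0.29. These calls made up 62.5% of the list, against 32.4% of all tested genes. NPC1 and NPC2 encode the partners that move cholesterol out of lysosomes, and they moved in opposite directions. NPC1 rose from 80.3 ± 4.06 to 137 ± 2.20 CPM, or 0.77 in log2 units. NPC2 fell from 138 ± 4.23 to 70.7 ± 7.77 CPM, or -0.97 in log2 units. UBE2D2, an E2 enzyme of the family that works with MYLIP, had a log2 fold change of 0.78 and was called higher.

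The LXR side was examined with its receptors and with other known LXR targets. NR1H2, which encodes LXR-beta, fell from 152 ± 6.53 to 92.2 ± 4.83 CPM (SD, n = 3), or -0.72 in log2 units (edgeR adjusted p = 4.4e-06). NR1H3, which encodes LXR-alpha, had 18.1 ± 1.23 CPM in shNC and 12.4 ± 1.34 in shBry, or -0.54 in log2 units (edgeR adjusted p = 0.003) and so short of the fold limit. Of 11 tested receptors and co-regulators, NR1H2 was called lower and EP300, a histone acetyltransferase gene, higher (log2 fold change 0.74). That share, 18.2%, was below the 32.4% of all tested genes. Of 8 tested other LXR targets, 2 were called higher and 3 lower, 62.5% together. PLTP, the phospholipid transfer protein gene, rose from 15.6 ± 0.619 to 26.6 ± 1.42 CPM, while MLXIPL (log2 fold change -1.54, at most 1.70 CPM) was called lower. MLXIPL lost its call without shNC replicate 1 (-1.30). The 4 members known as LXR targets thus comprised 2 called higher (ABCA1 and SREBF1), 1 not called (MYLIP) and 1 not tested (ABCG1).

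Of 20 cholesterol synthesis enzymes, 19 were called lower and none higher, with a median log2 fold change of -1.35, and PMVK (0.39) was the exception. The share called lower was 95%, against 15.2% of all tested genes. FDFT1 (log2 fold change -1.78) and ACAT2 (-2.15) were among those with the smallest adjusted p, and 52.3% of the ACAT2 exon bases lie under other genes. The fall of INSIG1 (-1.74) lay within the range of these enzymes, and that of SREBF2 (-0.78) was smaller than the list's median. Of 14 fatty acid synthesis enzymes, 8 (57.1%) were called lower and none higher, with a median log2 fold change of -0.79. FADS2, a desaturase gene, fell from 770.1 ± 39.6 to 192 ± 9.22 CPM. SCD, another desaturase gene, had a log2 change of -1.59, and ACSS2, which makes acetyl-CoA from acetate, had -1.56. SREBF1 was thus higher while none of the 14 fatty acid enzyme genes was called higher.

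**Figure D4:**
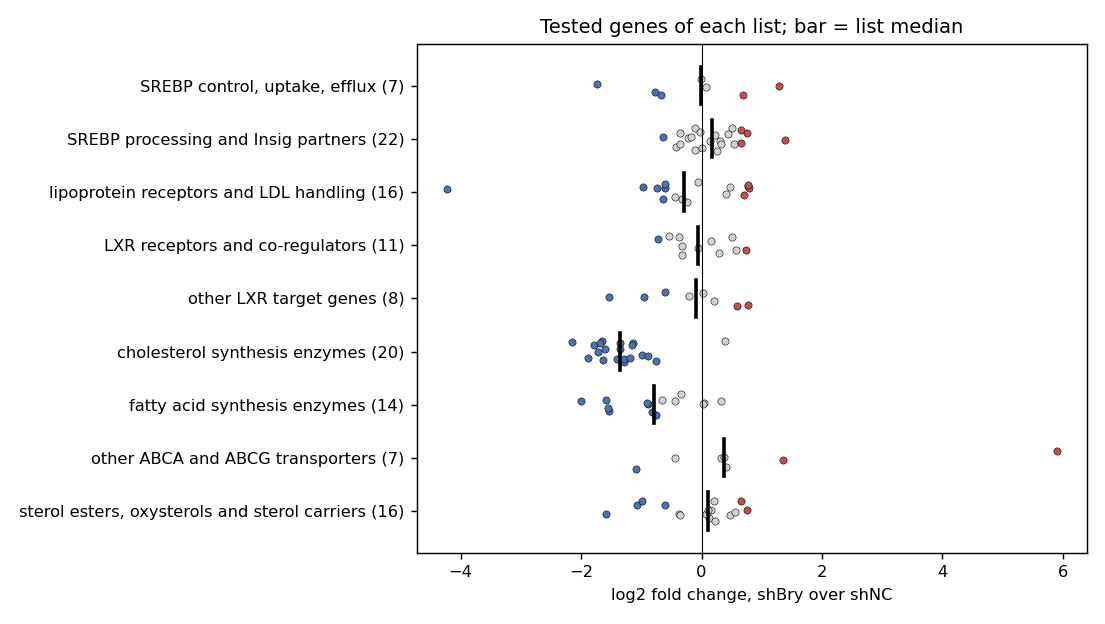
Log2 fold change of shBry over shNC for each tested gene of the 8 members and of 8 gene lists, with the number of tested genes in brackets. Red points were called higher, blue points lower and grey points not called, and black bars are list medians, which reach -1.35 for cholesterol synthesis enzymes. The points far from the rest at either end come from genes with few counts, such as ABCA10 on the right (at most 1 count in any shNC library), so their fitted values are no bound.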

How the data were processed

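RNA of 3 MDA-MB-231 shBry and 3 MDA-MB-231 shNC libraries was sequenced by the authors, who deposited raw counts per gene symbol. The submitters' processing notes name HISAT2 2.0.4, HTSeq and GRCh38. The annotation, strandedness and statistical test are not given in the sources used here, so overlapping genes could share counts. The design text of the deposit calls the RNA pericardial, whereas the labels name MDA-MB-231 cells.

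The deposited counts went into edgeR 4.0.16 (R 4.3.3): low genes were removed by filterByExpr at a minimum count of 10, libraries were scaled by TMM and groups compared by quasi-likelihood. DESeq2 1.42.0, limma 3.58.1 (voom) and other filters, scalings and limits were alternatives. The 1.5-fold limit follows the study's methods. The fitting was tested on simulated data. Standard errors are the log2 fold change divided by the square root of F. Ratios within a library used a pseudocount of 0.5. Gene locations and exon lengths came from GENCODE 29, matched by symbol, and sequences from RefSeq (GRCh38.p14) and GENCODE transcripts. SPRING1 was read from its older symbol.

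The 8 genes, the lists and the alternatives were chosen with earlier results of these data known. Named were the members, NR1H2, NR1H3, MBTPS1, MBTPS2, in each list up to 3 called genes of lowest adjusted p, and the 2 tested genes nearest to each member in their centred log2 CPM. Some results that this rule covers are not reported here. Other genes were named after their values were seen. Fibroblast markers and genes low in MDA-MB-231 were checked too. In the fibroblast list, summed levels were between 19.3 and 24.1 CPM in shNC and between 20.7 and 23.3 CPM in shBry. Nearly all of that was COL1A1, with means of 21.9 CPM in shNC and 22.0 CPM in shBry. Over all libraries of a group, COL3A1 had 28 counts in shNC and 5 in shBry, LUM had 2 and 0, and DCN was at 0. ESR1, PGR, CDH1 and EPCAM summed to at most 1.94 CPM in shNC and 5.01 CPM in shBry, and EPCAM was called higher. Same-numbered libraries did not deviate together (correlations of 0.183, -0.084 and -0.0282 for numbers 1, 2 and 3), so the numbers were not used as pairs.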

Additional observations from a re-analysis of the deposited data

How the results depend on the processing

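The calls of all 5 called members held, in the same direction, without TMM, with DESeq2 and its size factors, with limma-voom, with either other filter, with unadjusted p, with no fold change limit and with each library left out in turn. With a fold change limit of 2 in place of 1.5, SREBF1 (0.69), SREBF2 (-0.78) and INSIG2 (-0.67) lost their call, which left 1 member higher and 1 lower, the genes called higher numbered 1255 and the genes called lower 1042. That limit left 1 gene higher and 0 lower for SREBP processing, 0 and 1 for LDL handling, 0 and 0 for LXR receptors, 0 and 1 for other LXR targets, 4 lower for fatty acid enzymes, and 0 and 2 for sterol esters and carriers. With no limit, the genes called higher numbered 4279 and the genes called lower 3860, with 8 and 4 for SREBP processing, 2 and 5 for LXR receptors, 1 higher for cholesterol and 1 for fatty acid enzymes, 4 and 2 for other ABCA and ABCG genes, and 4 higher for sterol esters and carriers. Other LXR targets had 1 gene called higher without TMM, with DESeq2, with its size factors in edgeR, and with either other filter. With at least 10 counts in every library, 1 of the other ABCA and ABCG genes was called higher, and with no filter the median of the cholesterol enzymes was -1.38. The ratio of ABCA1 to ABCG1 turned from -1.53 to 0.27 with a pseudocount of 5, since ABCG1 had at most 9 counts in a library.

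With each library left out in turn, the log2 fold change was between 0.59 and 0.74 for SREBF1, -0.86 and -0.75 for SREBF2, -0.08 and 0.00 for SCAP, -1.87 and -1.63 for INSIG1, -0.80 and -0.60 for INSIG2, 0.01 and 0.10 for MYLIP, and 0.92 and 1.53 for ABCA1. The list medians were between -0.37 and -0.23 for LDL handling, -0.17 and 0.06 for LXR receptors, -0.32 and 0.01 for other LXR targets, -1.41 and -1.31 for cholesterol enzymes, 0.34 and 0.47 for other ABCA and ABCG genes, and 0.01 and 0.17 for sterol esters and carriers. For LXR receptors between 1 and 3 genes were called higher and between 1 and 2 lower, with both counts raised by leaving out shBry replicate 1, shBry replicate 3 or shNC replicate 3. For other LXR targets between 1 and 2 were called higher (1 without shBry replicate 2 or 3 or shNC replicate 1 or 3) and between 1 and 3 lower (1 without shNC replicate 1 or 3). NR1H3 passed the limit without shBry replicate 1 or 3 (-0.59) or shNC replicate 3 (-0.62).

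With the replicate number as a block, all 5 calls among the members held, 2589 genes were called higher and 2325 lower, and other LXR targets had 1 gene called higher. In the paired sign-flip test the ratios could not go below an exact p of 0.25. Depth limits ABCG1, which had at most 9 counts in any library.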

Other observations

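Exporters of the same families as ABCA1 and ABCG1 were examined as well. Of 13 other ABCA and ABCG genes, 7 were tested, 2 were called higher and 1 lower, and the median log2 fold change was 0.38. The calls were 42.9% of those tested, against 32.4% of all tested genes. ABCG2, a drug and urate exporter gene, rose from 1.40 ± 0.394 to 3.58 ± 0.336 CPM (SD, n = 3), or 1.35 in log2 units. ABCG4 fell from 4.55 ± 0.527 to 2.16 ± 0.553 CPM, or -1.08 in log2 units. ABCA10 had 0, 0 and 1 counts in shNC and 22, 32 and 30 counts in shBry, a ratio of 80.7 over the group totals with an exact 95% interval from 14.1 to 3224 (counting error only). Stretches of 50 bases shared with other genes made up 4.83% of the ABCA10 transcripts.

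Of 20 genes of sterol esters, oxysterols and sterol carriers, 16 were tested, 2 were called higher and 4 lower. Their share, 37.5% of those tested, was near the 32.4% of all tested genes. OSBP, an oxysterol-binding protein gene, rose from 79.2 ± 3.76 to 125 ± 5.82 CPM (log2 fold change 0.66). The sterol transfer genes GRAMD1A and GRAMD1B moved in opposite directions, GRAMD1A from 67.6 ± 4.72 to 113 ± 11.4 CPM (log2 fold change 0.75) and GRAMD1B from 14.4 ± 1.32 to 6.85 ± 1.30 CPM (log2 fold change -1.07).

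Among all tested genes, those whose log2 CPM over the 6 libraries, centred on the gene's own mean, lay nearest to a member were YIPF2 and NDUFV3 for SREBF1 (root mean square distances of 0.0141 and 0.0221) and SMARCD2 and ANO10 for SREBF2 (0.0304 and 0.0322). They were GRK6 and INO80E for SCAP (0.0151 and 0.0169), PHF12 and LOXL2 for MYLIP (0.00569 and 0.0159), FBXL7 for INSIG1 (0.06) and TBCCD1 and GCA for INSIG2 (0.0599 and 0.0737). The nearest to ABCA1 were the pseudogenes NUS1P1 and NPM1P39 at larger distances of 0.146 and 0.185. With 6 libraries in 2 groups, many genes share such a pattern.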
